A study of Mus musculus with 20 samples.

Results

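Leukocytes selected from B;p38α mouse melanomas were compared with the tumor and stromal cells left after the selection, 3 arrays of each. These 6 of the series' 20 arrays were taken by their labels as B;p38α CD45+ and B;p38α CD45- populations, and 19504 genes were measured. Where a symbol had several rows in the table, the brightest on average across the 20 arrays was kept. Both populations came from Tyr::CreERT2;BrafCA/CA;p38αlox/lox mice, in which the tyrosinase promoter confines a tamoxifen-dependent Cre recombinase to the melanocyte lineage. In that lineage Cre switched on an oncogenic form of the kinase gene Braf and deleted Mapk14, the gene of p38α, while leukocytes, fibroblasts and vessels of the same tumor were not targeted. Pups had 4-hydroxytamoxifen on the skin at 5 mg/ml on postnatal days 2.5 and 3.5 and 1 UVB dose of 6.24 kJ/m2 on day 3.5, and tumors were taken at endpoint size. The age at that point is not given in the labels, and all of these alleles and agents were shared by the CD45+ and the CD45- group, so the comparison is one of cells within 1 tumor model and not of treatments. Excised tumors were broken up mechanically and with enzymes, CD45+ cells were pulled out with the MagniSort magnetic selection kit, and the CD45- group is what the selection left behind. The remaining arrays are 3 B;p38α complete tumors, which were not sorted, and the same populations of B tumors (5 complete, 3 CD45+ and 3 CD45-), which carry the Braf allele with p38α intact.

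CD45, the product of Ptprc, is a tyrosine phosphatase on the surface of nearly all leukocytes and is absent from melanoma cells, fibroblasts and endothelium. The leukocytes of solid tumors are commonly rich in macrophages, which arise from monocytes under the growth factor receptor Csf1r and the transcription factor PU.1, take up debris, present antigen through MHC class II molecules and release cytokines and chemokines. Melanoma cells descend from the neural crest, and those that have lost the pigment program often carry genes of neural crest and Schwann cells.

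The selection was checked on Ptprc itself. Its log2 level was 11.25, 11.20 and 11.95 in CD45+ replicates 1 to 3 and 6.80, 8.37 and 8.63 in the CD45- replicates, with complete tumors between them at 9.41, 10.30 and 9.79. The groups did not overlap, the difference (CD45+ minus CD45-, here and throughout) was 3.53 log2 units (SE 0.49, n = 3 each, limma adjusted p = 0.0133), and the two-sided exact permutation p was 0.1, the smallest that 3 against 3 arrays allow. CD45- replicate 1 was the lowest of the 3 for Ptprc, and also for the mean of 16 general leukocyte genes, which stood at 10.05, 10.02 and 10.73 in CD45+ and at 6.19, 7.56 and 7.98 in CD45- replicates. Leukocyte genes therefore gave unequal readings in the CD45- arrays. Whether the low readings of CD45- replicate 1 reflect leukocyte RNA was not tested. Markers of tumor and stroma were also looked at in both groups. Sox10, a transcription factor of the neural crest and melanoma, read 10.89, 11.05 and 9.95 in CD45+ against 11.78, 11.34 and 11.07 in CD45- arrays (-0.77, SE 0.33, limma adjusted p = 0.262). The collagen gene Col1a1 read 12.15, 12.19 and 12.05 against 12.17, 12.43 and 12.95 (-0.39, SE 0.22, limma adjusted p = 0.387). These markers of tumor and stroma thus read high in the CD45+ arrays too. Which cells these transcripts came from, and what part they have in any difference below, was not tested. In such bulk samples fewer cells of a type and less RNA per cell cannot be told apart.

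Single arrays stood apart in ways the groups do not explain. CD45+ replicates 1 and 2 were unusually alike: the SD of their difference over genes was 0.32 and 215 genes differed by more than 1 log2 unit, against 0.48 to 0.99 and 836 to 4437 genes for the remaining pairs of any group. The 3 measured Y-linked genes had a mean of 8.81 in CD45- replicate 2, against 2.75 to 3.32 in the 5 remaining sorted arrays, CD45+ replicate 2 included at 3.01, so the arrays that share number 2 do not match in this respect. Mapk14 had 10.19, 10.00 and 10.43 in CD45+ and 9.58, 9.54 and 9.79 in CD45- arrays (0.57, SE 0.17, limma adjusted p = 0.132, exact permutation p = 0.1). Where its probes lie relative to the deleted part is not known here, so its level checks nothing. Braf differed by -0.32 (SE 0.21, limma adjusted p = 0.465). Sample titles name them biological replicates. Whether each came from a different animal is not stated, so a p-value below reflects the scatter of these arrays, and some of that may be technical.

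The largest called differences belonged to genes of leukocytes, and more genes were called on the CD45+ side than on the CD45- side. With a limma adjusted p under 0.05, 709 genes (3.64% of those tested) were higher in CD45+ cells and 131 (0.672%) were lower, 840 or 4.31% in all. Of the higher genes 648 differed by more than 1 log2 unit, 378 by more than 2 and 176 by more than 3, with a median of 2.10. Of the lower genes 63 differed by more than 1, a single gene by more than 1.5 and 0 by more than 2, with a median of -0.98. Over all genes the median was -0.09, with 7648 differences above and 11856 below 0. The 3 arrays of each group did not overlap in any of the 709 or the 131 called genes, nor in 11.2% and 17.3% of all genes in each direction. With CD45+ replicates 1 and 2 averaged into 1 sample, 252 genes were called higher and 4 lower. Leaving out CD45+ replicate 1, 2 or 3 gave 205, 270 and 310 higher and 4, 7 and 8 lower genes. Leaving out CD45- replicate 1, 2 or 3 gave 528, 258 and 615 higher and 120, 7 and 42 lower genes. The Y-linked mean as a covariate gave 190 and 3. That mean stood apart only in CD45- replicate 2, so this fit comes close to leaving that array out. A total of 173 higher genes kept their call in all 6 fits that left out an array and after averaging, as did 2 lower genes, Bves and Slitrk1. Where a group below is said to have members that kept the call, these are the 7 fits meant.

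**Figure D1:**
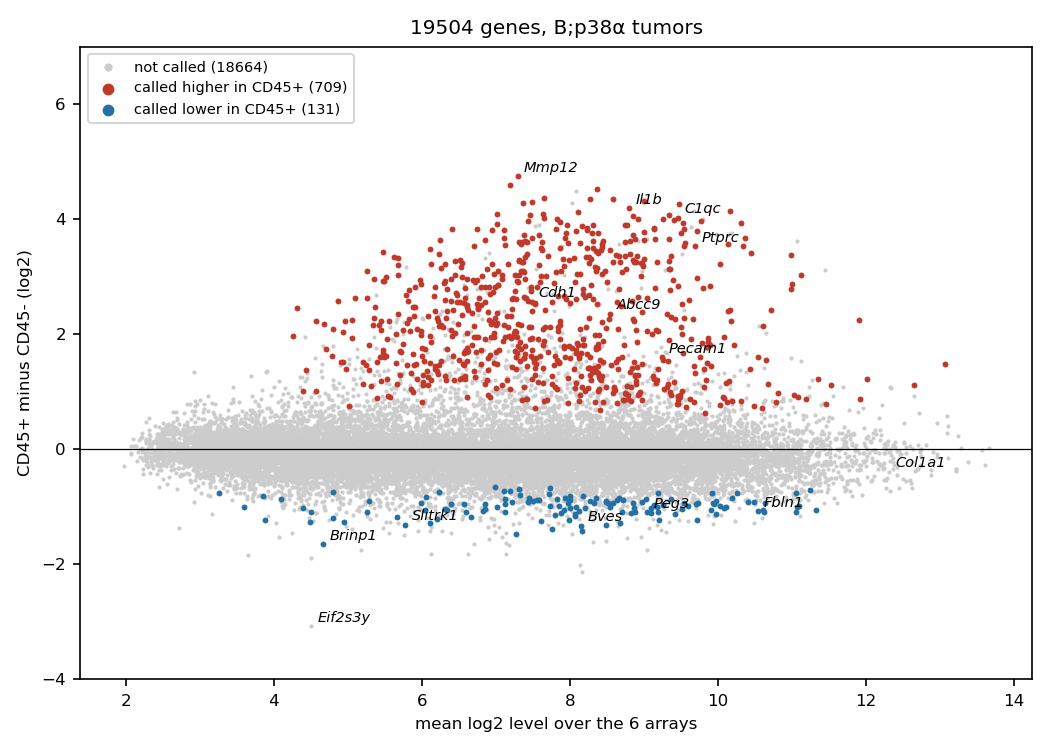
The difference between CD45+ and CD45- populations of B;p38α tumors (log2, vertical axis) is plotted against the mean log2 level over the 6 arrays (horizontal axis), 1 point a gene, with called genes in red (709 higher) and blue (131 lower). The red points reach 4.75 at Mmp12, the blue ones -1.65 at Brinp1, and the uncalled point at the bottom is the Y-linked gene Eif2s3y.

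Among called genes the 12 largest positive differences ran from 4.15 to 4.75 log2 units. They belonged to genes of macrophages and other myeloid cells where a role is known. Uncalled genes could reach this size too, such as Aif1 (below). Mmp12, the elastase of macrophages, had 9.25, 9.54 and 10.21 in CD45+ and 3.60, 5.55 and 5.61 in CD45- arrays (4.75, SE 0.56, limma adjusted p = 0.00849). Tlr13, an endosomal sensor of bacterial ribosomal RNA, had 9.29, 9.25 and 9.93 against 2.76, 5.34 and 6.56 (4.60, SE 0.87, limma adjusted p = 0.0371). In both, every CD45+ array lay far above every CD45- array, and CD45- replicate 1 was the lowest. Rgs1, which dampens chemokine receptor signaling in leukocytes, differed by 4.53, and Clec12a, an inhibitory lectin receptor of myeloid cells, by 4.37. Ccl12, a chemokine that attracts monocytes, had 10.53, 10.77 and 11.00 against 5.02, 6.18 and 8.02 (4.36, SE 0.68, limma adjusted p = 0.0201). Clec4n, the fungal receptor dectin-2, had 10.33, 10.28 and 10.75 against 5.19, 5.75 and 7.39 (4.35, SE 0.53, limma adjusted p = 0.00943). Over the 709 higher genes CD45- replicate 1 was the lowest of its group in 457 and replicate 3 the highest in 443. The CD45+ group was uneven too, with replicate 3 the highest in 594 of the 709, against 55 and 60 for replicates 1 and 2. Pik3ap1, an adapter that links receptors to the kinase PI3K, differed by 4.32, Nxpe5 by 4.31 and Gm6377 by 4.29. Mrc1, the mannose receptor CD206 of tissue macrophages, had 11.40, 11.43 and 11.99 against 5.16, 7.82 and 9.06 (4.26, SE 0.89, limma adjusted p = 0.0488). Il1b, the cytokine interleukin-1 beta, had the tightest groups of the 12, at 10.79, 10.84 and 11.08 against 5.93, 6.61 and 7.56 (4.20, SE 0.39, limma adjusted p = 0.00572). Fcrls, an Fc receptor-like gene of mouse macrophages and microglia, differed by 4.15 with 12.45, 12.32 and 11.94 against 6.82, 8.23 and 9.22. Only Mmp12, Clec4n and Il1b of these 12 kept their call in the 7 fits.

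Among called genes the 12 largest negative differences were much smaller, from -1.25 to -1.65, and several of the genes are known from neurons and glia. Some uncalled genes had larger negative values, such as the Y-linked Eif2s3y (-3.08). Slitrk1, a synaptic adhesion protein, had 4.99, 5.21 and 5.16 in CD45+ and 6.39, 6.43 and 6.47 in CD45- arrays (-1.31, SE 0.14, limma adjusted p = 0.00672). Bves, a membrane protein that binds cyclic AMP, had 7.63, 7.37 and 7.46 against 8.88, 8.82 and 8.76 (-1.33, SE 0.15, limma adjusted p = 0.00696). These were the 2 genes with the closest replicates of the 12, and they alone kept their call in the 7 fits. Brinp1, a gene of the nervous system, had 3.92, 3.99 and 3.59 against 4.80, 5.68 and 5.98 (-1.65, SE 0.31, limma adjusted p = 0.0371). Its CD45+ values lay in the range of the Y-linked gene Eif2s3y, 2.38 to 4.56 in the sorted arrays other than CD45- replicate 2. That range is taken here as a mark of dim readings, and the CD45- values of Brinp1 lay above it. Whether its CD45+ values reflect expression was not tested. Grb14, an adapter that inhibits the insulin receptor, had 6.15, 6.42 and 7.02 against 7.80, 8.52 and 7.70 (-1.48, SE 0.30, limma adjusted p = 0.0465). The synaptic adhesion gene Igsf21 differed by -1.42, the transmembrane gene Tmeff1 by -1.39, the teneurin gene Tenm1 by -1.31 and the sodium pump partner Nkain4 by -1.28. Crtac1, an extracellular matrix protein of cartilage, differed by -1.28 (SE 0.18, limma adjusted p = 0.0133), and Dhtkd1, a mitochondrial enzyme of lysine breakdown, by -1.26. Pramel13 had -1.26 and Inava -1.25. The CD45+ values of Pramel13 lay in the same dim range as those of Brinp1. Among the 12 positive differences above, CD45- replicate 1 lay in that range for Mmp12 (3.60), Tlr13 (2.76) and Rgs1 (3.96). The same held for Clec12a (3.38), Nxpe5 (4.15) and Gm6377 (3.79), but not for the others of the 12. Whether those readings reflect expression was not tested. In complete tumors the mean of Grb14 (8.35), Slitrk1 (6.51), Tenm1 (9.18) and Nkain4 (9.34) lay above both sorted groups. That position was found for 32.8% of all genes, so it does not set these 4 of the 12 apart.

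**Figure D2:**
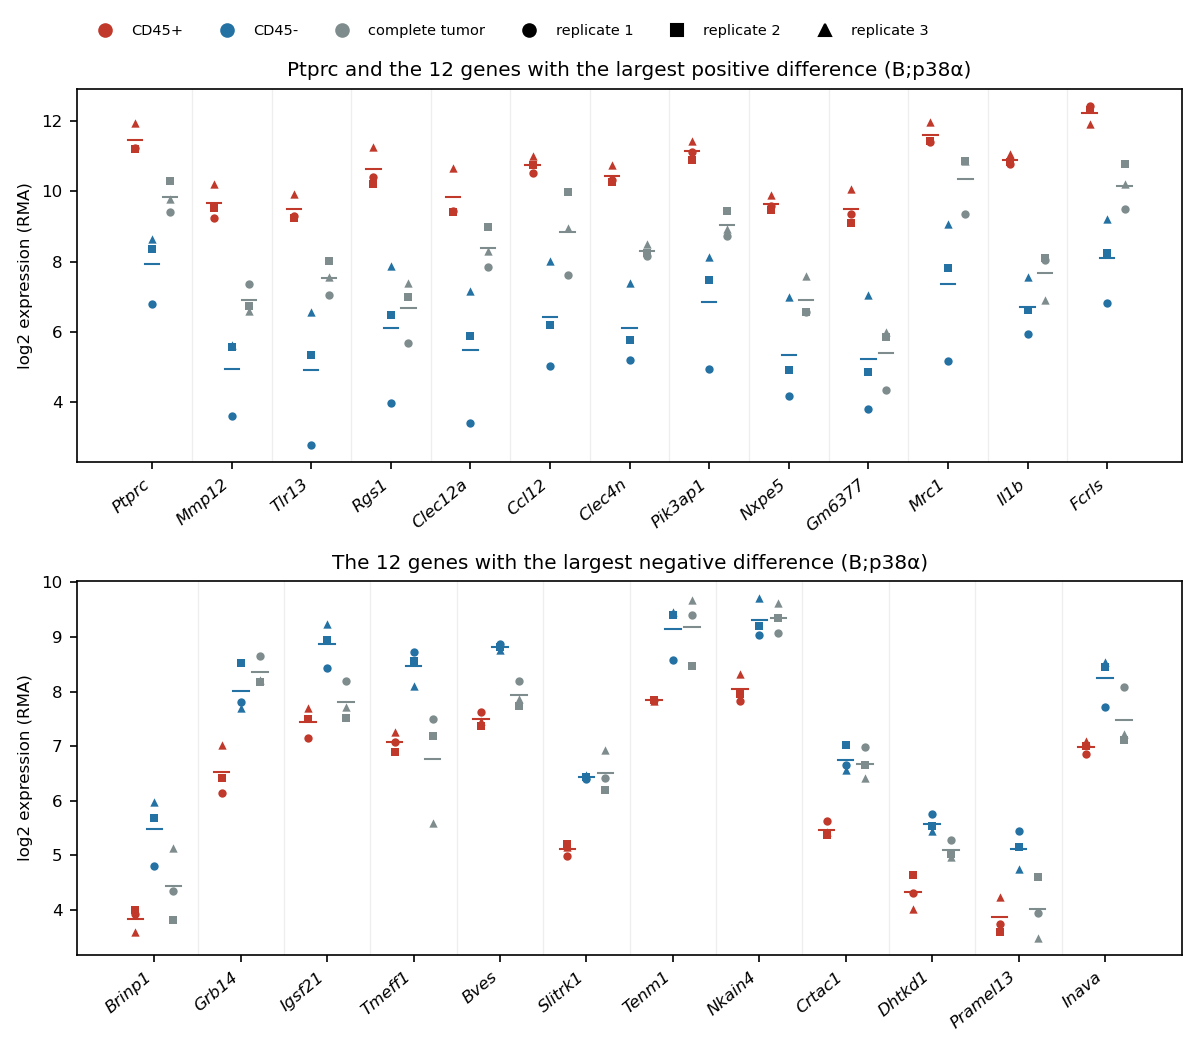
Each point is the log2 level of 1 gene on 1 B;p38α array (red CD45+, blue CD45-, grey complete tumor, with a symbol for each replicate number and a bar at each group mean). The upper panel shows Ptprc with the 12 largest positive differences among called genes, and the lower panel the 12 largest negative ones among called genes. Red and blue points do not overlap for any of these genes. The differences of group means reach 4.75 log2 units in the upper panel and -1.65 in the lower one. The blue points of the upper panel spread widely.

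The sequences just upstream of 4 of these genes are shown because many myeloid genes carry sites of PU.1, the factor encoded by Spi1, which was itself higher (below). Each is the stretch of 250 bases before the annotated start of transcription, in the direction of the gene, from the RefSeq promoters of GRCm38.p6, and capitals mark GAGGAA or its reverse complement TTCCTC, the core of the PU.1 site. The windows are Ptprc at chr1:138175306-138175555 on the minus strand, Mrc1 at chr2:14229164-14229413 on the plus strand, Clec12a at chr6:129349994-129350243 on the plus strand and, among the lower genes, Slitrk1 at chr14:108914240-108914489 on the minus strand.
Ptprc: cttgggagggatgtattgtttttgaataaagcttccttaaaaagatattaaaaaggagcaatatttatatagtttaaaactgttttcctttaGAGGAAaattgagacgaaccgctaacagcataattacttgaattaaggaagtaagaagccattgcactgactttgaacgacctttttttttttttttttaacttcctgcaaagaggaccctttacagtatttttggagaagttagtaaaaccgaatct
Mrc1: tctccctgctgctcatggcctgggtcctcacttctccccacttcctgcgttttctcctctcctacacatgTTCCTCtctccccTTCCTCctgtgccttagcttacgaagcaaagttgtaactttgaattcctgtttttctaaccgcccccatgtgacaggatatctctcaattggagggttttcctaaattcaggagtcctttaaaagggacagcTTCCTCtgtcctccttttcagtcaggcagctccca
Clec12a: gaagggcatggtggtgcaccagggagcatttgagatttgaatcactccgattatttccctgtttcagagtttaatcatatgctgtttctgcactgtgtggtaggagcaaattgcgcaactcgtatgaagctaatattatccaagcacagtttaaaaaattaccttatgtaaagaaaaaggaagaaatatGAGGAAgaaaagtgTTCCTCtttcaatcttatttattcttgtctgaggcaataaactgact
Slitrk1: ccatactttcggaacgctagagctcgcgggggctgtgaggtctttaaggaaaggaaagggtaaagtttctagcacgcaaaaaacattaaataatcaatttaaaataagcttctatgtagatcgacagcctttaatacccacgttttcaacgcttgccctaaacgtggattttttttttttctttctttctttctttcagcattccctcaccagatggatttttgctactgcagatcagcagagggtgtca
These windows were chosen to show both cases. The core occurred once in the Ptprc window, 3 times in that of Mrc1 and 2 times in that of Clec12a, and was not found in the letters of the Slitrk1 window. Among the largest differences there were also cases the other way: the Il1b window held 0 cores and that of Brinp1 held 2. A promoter was listed for 564 of the 709 higher genes, of which 205 (36.3%) held GAGGAA on either strand, and for 102 of the 131 lower genes, of which 20 (19.6%) held it. Over all 27025 genes of the promoter table the share was 23.1%, and over the 15690 measured ones 22.5%. Among the 12 largest called positive differences 10 had a listed promoter and 8 held the core, and among the 12 largest called negative ones 10 had a promoter and 1 held it. A match is a string of letters, not a bound site, and no binding was measured here.

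The listed gene groups that follow hold 838 measured genes, of which 171 were higher in CD45+ cells and 9 lower. Leaving out CD45+ replicate 1, 2 or 3 left 46, 56 and 64 listed genes higher, leaving out CD45- replicate 1, 2 or 3 left 131, 61 and 167, and averaging CD45+ replicates 1 and 2 left 51. Listed genes that kept the call in all 7 fits numbered 40 higher and 1 lower. Genes common to all leukocytes separated the groups clearly. Of 16 such genes 12 passed higher and 0 lower, with a median of 3.37 against -0.09 over all genes, and the 3 CD45+ values exceeded all 3 CD45- values in each of the 16. Cd52, a short surface glycoprotein of lymphocytes and macrophages, had 9.94, 10.20 and 10.64 against 4.87, 7.26 and 7.37 (3.76, SE 0.65, limma adjusted p = 0.0278). Vav1, an exchange factor that relays antigen receptor signals, differed by 3.68, and Hcls1, a cortactin-like protein of blood cells, by 3.57. Lcp1, the actin bundler L-plastin, had 12.04, 11.89 and 12.42 against 7.09, 9.10 and 9.52 (3.54, SE 0.59, limma adjusted p = 0.0256). Cd53, a tetraspanin, differed by 3.40 and did not pass (SE 0.79, limma adjusted p = 0.0647), its CD45- values running from 5.84 to 9.05. Cytip, Cd48 and Coro1a kept their call in the 7 fits.

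Markers of macrophages and monocytes had the largest median of all lists, 3.66, with 13 of 21 measured members called higher, 0 lower and all 21 without overlap between the groups. C1qc, a chain of the complement component C1q that macrophages secrete, had 11.11, 11.28 and 12.06 against 5.68, 7.59 and 9.09 (4.03, SE 0.79, limma adjusted p = 0.0410). Csf1r, the receptor that keeps macrophages alive, had 12.05, 11.92 and 12.64 against 6.96, 8.76 and 9.85 (3.68, SE 0.67, limma adjusted p = 0.0326). Cx3cr1, the fractalkine receptor of monocytes and macrophages, differed by 3.85, Tyrobp, the signaling adapter DAP12, by 3.84 and the integrin gene Itgam by 3.78. Aif1, which encodes the macrophage protein IBA1, had the largest difference of the list, 4.49, but did not pass (SE 0.98, limma adjusted p = 0.0551). Its CD45- values were 3.49, 6.28 and 7.75. C1qa (3.74, limma adjusted p = 0.0504) and C1qb (3.74, 0.0871) missed the threshold in the same way, with CD45- replicate 1 far below the others. The list mean stood at 10.59, 10.59 and 11.41 in CD45+, 6.14, 7.67 and 8.73 in CD45- and 8.95, 9.64 and 9.47 in complete tumors. None of the 13 called members kept its call in all 7 fits.

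Transcription factors that build the myeloid lineage were higher in 8 of 12 members (median 1.78). Spi1, which encodes PU.1, had 12.25, 12.19 and 12.41 against 6.46, 8.92 and 9.65 (3.94, SE 0.74, limma adjusted p = 0.0368). Tfec, a macrophage relative of the melanocyte factor MITF, differed by 3.10, Maf by 2.79, the interferon regulatory factor gene Irf5 by 2.18 and Cebpa, of granulocyte and monocyte progenitors, by 2.13. Id2, an inhibitor of helix-loop-helix factors needed by several lymphoid and dendritic cells, had 10.77, 10.79 and 10.96 against 8.88, 8.84 and 8.99 (1.94, SE 0.14, limma adjusted p = 0.00329) and was the list's only member to keep its call in the 7 fits.

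Both macrophage activation lists held called genes, with none lower. From the list of resident and alternatively activated macrophages, 5 of 17 members passed (median 2.76): Mrc1, the transglutaminase gene F13a1 (4.00), the lectin gene Mgl2 (3.80), the scavenger receptor gene Stab1 (3.60) and the chitinase-like gene Chil3 (2.16). F13a1 had 11.04, 10.86 and 11.89 against 6.09, 6.65 and 9.06. The scavenger receptor Cd163 had 7.41, 7.59 and 9.54 against 4.73, 4.81 and 6.64 (2.79, SE 0.71, limma adjusted p = 0.0849), with CD45+ replicate 3 well above the others. Of the classical activation list 9 of 16 passed (median 1.65). Tnf, the cytokine tumor necrosis factor, had 9.91, 9.83 and 9.58 against 5.56, 6.15 and 6.58 (3.67, SE 0.27, limma adjusted p = 0.00329), and Cd86, a co-stimulatory ligand for T cells, had 8.59, 8.89 and 9.60 against 3.60, 5.64 and 6.37 (3.82). Ptgs2, the inducible cyclooxygenase, differed by 3.05, Il1a by 2.58 and Acod1, which makes itaconate, by 2.38. Il1b, Tnf, Il1a and Acod1, 4 of the 9 called classical genes, kept their call in the 7 fits, against 0 of the 5 called resident genes. Over all higher genes 173 of 709 kept it, so such small counts do not rank the 2 lists. The nitric oxide synthase gene Nos2 (0.61, limma adjusted p = 0.139) and the arginase gene Arg1 (0.80, 0.197), textbook markers of the 2 programs, did not pass.

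Receptors by which myeloid cells recognize microbes and dying cells followed. Lectin receptors passed in 11 of 16 members (median 3.06). After Clec12a and Clec4n the largest were Clec4a3 (4.03) and Clec4a2 (3.84), and Clec4d, a partner of dectin-2, had 7.58, 7.44 and 8.19 against 4.51, 4.31 and 4.74 (3.22, SE 0.24, limma adjusted p = 0.00329). Of Toll-like and other pattern receptors 14 of 25 passed (median 1.37). Nlrp3, the sensor of an inflammasome, had 8.78, 8.95 and 9.46 against 4.00, 5.01 and 5.88 (4.10, SE 0.46, limma adjusted p = 0.00740) and kept its call in the 7 fits. Tlr1 differed by 3.92 and Tlr7, a receptor for single-stranded RNA, by 3.91. Tlr4, the receptor for bacterial lipopolysaccharide, is the counterexample, at 10.31, 10.19 and 10.30 in CD45+ and 10.39, 9.36 and 9.97 in CD45- arrays (0.36, SE 0.26, limma adjusted p = 0.507).

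Fc receptors and inhibitory immunoglobulin receptors passed in 13 of 16 members (median 2.96), of which 5 kept the call in the 7 fits. Lilrb4a, an inhibitory receptor of myeloid cells, had 11.51, 11.54 and 12.22 against 6.17, 8.19 and 9.01 (3.97, SE 0.67, limma adjusted p = 0.0267). Fcgr1, the high-affinity receptor for immunoglobulin G, differed by 3.66, and the paired receptor gene Pirb had 10.27, 10.34 and 11.18 against 6.78, 7.27 and 8.01 (3.24, SE 0.37, limma adjusted p = 0.00789). Lilrb4a and Lilr4b (3.83) are near-identical copies, so their probes may not separate them. Of the phagocyte NADPH oxidase, Ncf1 (3.40), Rac2 (3.36) and Ncf4 (3.20) passed among 5 measured members, and the catalytic subunit Cybb did not (3.87, SE 0.93, limma adjusted p = 0.0722). Lysosomal proteases and lipid handling genes passed in 5 of 17 (median 0.63): Mmp12, the cathepsin genes Ctss (3.58), Ctsc (2.25) and Ctsh (1.81), and the legumain gene Lgmn (1.22).

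**Figure D3:**
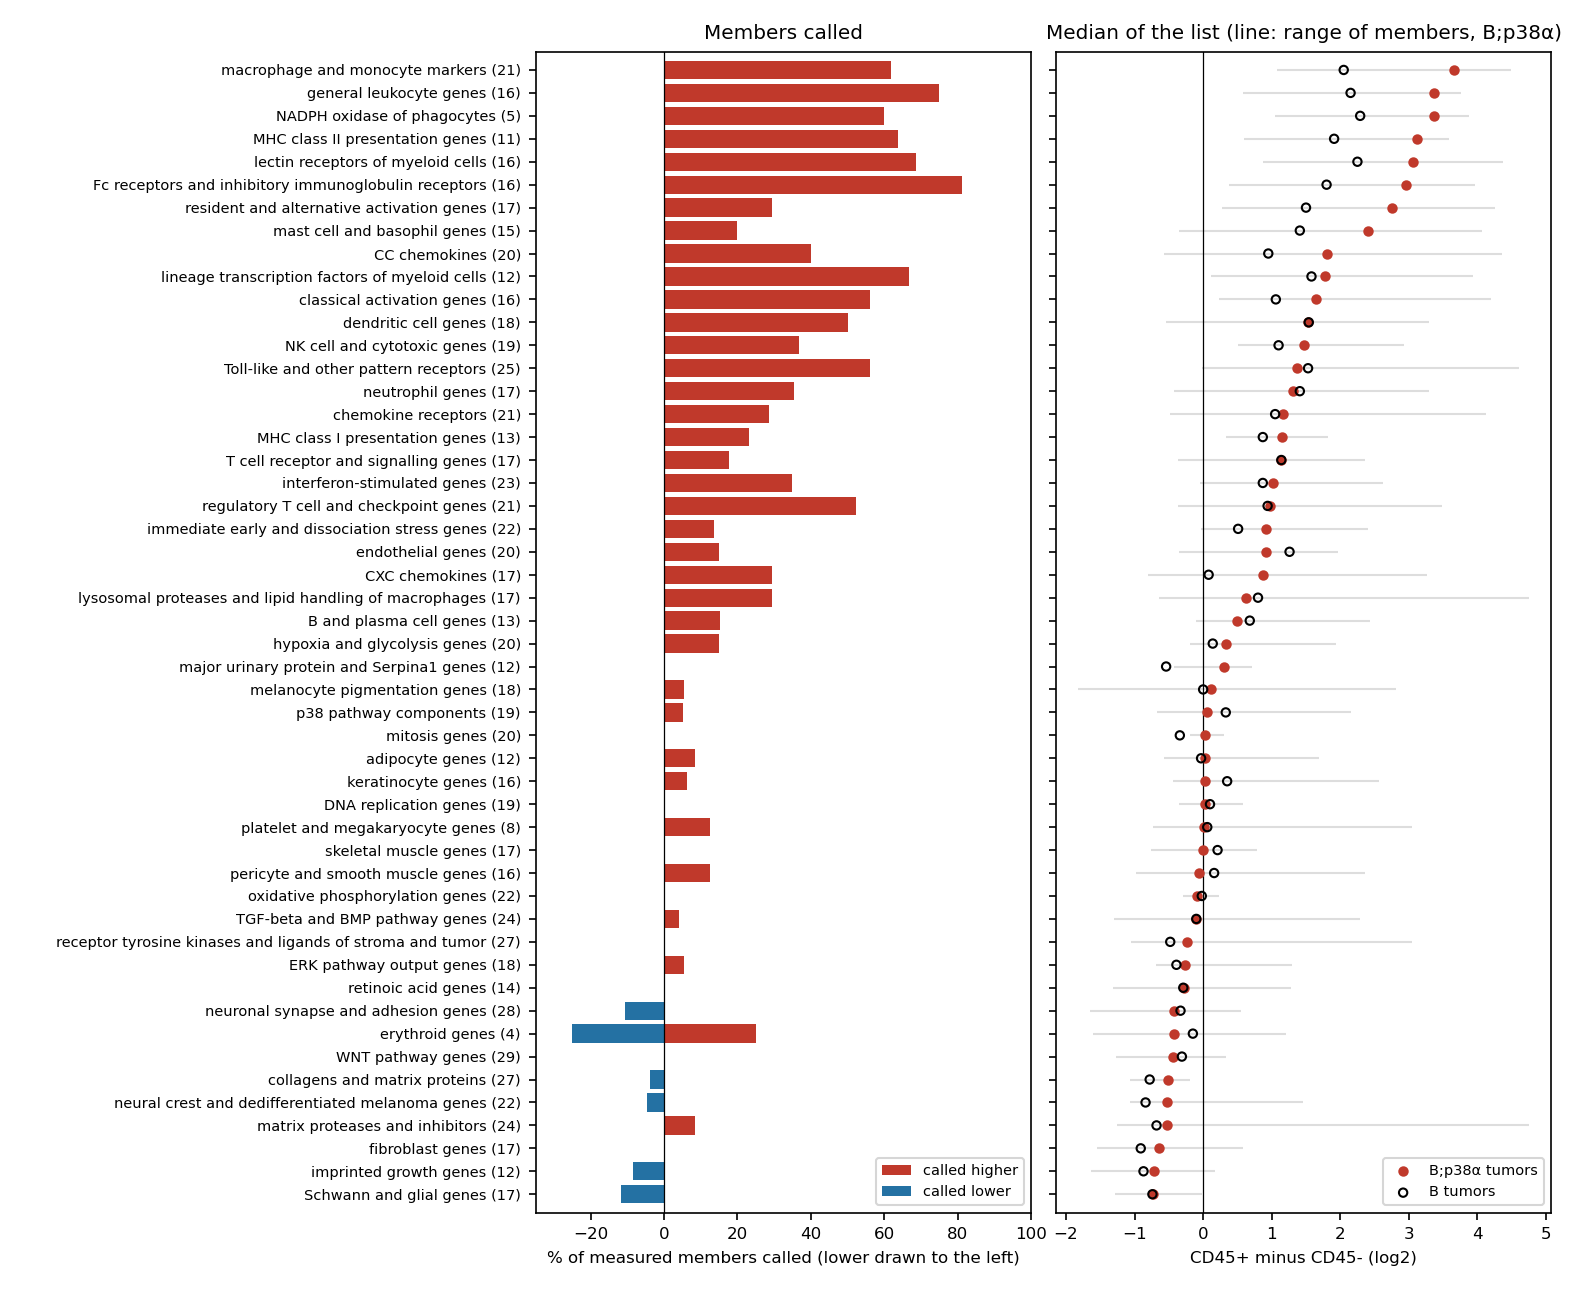
For each gene list but the Y-linked one (number of measured members in brackets) the left panel shows the percentage of members called higher (red, to the right) or lower (blue, to the left) in CD45+ cells of B;p38α tumors, and the right panel the median difference in B;p38α (filled) and B tumors (open) with the range of members as a grey line. Myeloid lists fill the top, with medians up to 3.66, and Schwann, imprinted and fibroblast genes the bottom, with medians down to -0.73. The Y-linked genes (median -1.84), which follow 1 array, are not drawn.

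Granulocyte genes came next. Neutrophil genes passed in 6 of 17 (median 1.31). Csf3r, the receptor of granulocyte colony-stimulating factor, had 9.36, 9.64 and 9.92 against 5.08, 6.68 and 7.28 (3.29, SE 0.53, limma adjusted p = 0.0214), the decoy receptor Il1r2 differed by 3.28, and the calprotectin genes S100a9 and S100a8 by 2.82 and 2.63. S100a9 and S100a8 were higher in CD45- replicate 2 (7.44 and 7.12) than in replicates 1 and 3 (4.92 to 5.71). Cxcr2, the receptor that draws neutrophils, had 6.81, 7.04 and 6.77 against 5.63, 5.48 and 5.59 (1.31, SE 0.15, limma adjusted p = 0.00781). Mast cell and basophil genes had a high median, 2.40, with 3 of 15 passing. These were Hpgds, a prostaglandin D synthase that macrophages share (10.91, 10.80 and 10.96 against 6.02, 6.75 and 7.70, a difference of 4.06), the histidine decarboxylase gene Hdc (2.64) and the receptor gene Kit. The mast cell proteases Cpa3 (3.91, SE 1.25, limma adjusted p = 0.148), Mcpt4 (3.32, 0.110) and Tpsb2 (2.72, 0.0860) did not pass: CD45+ replicate 3 held 11.12, 10.36 and 10.53, against 7.50 to 8.87 in replicates 1 and 2.

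Dendritic cell genes passed in 9 of 18 (median 1.53), and 3 kept the call in the 7 fits. Itgax, the integrin CD11c, had 8.94, 8.91 and 8.90 against 5.42, 6.12 and 5.97 (3.08, SE 0.21), and its limma adjusted p of 0.00299 is the lowest value any gene reached. Cd83, a marker of mature dendritic cells, differed by 3.30 and Itgae, the integrin CD103, by 2.96 (8.15, 8.23 and 7.88 against 4.64, 5.32 and 5.42). Flt3, whose ligand drives dendritic cell growth, had 7.37, 7.51 and 7.60 against 4.70, 5.23 and 4.57 (2.66, SE 0.21, limma adjusted p = 0.00402), and Xcr1, of cross-presenting dendritic cells, differed by 2.82. Ccr7, by which mature dendritic cells reach lymph nodes, had 0.57 (limma adjusted p = 0.10). MHC class II presentation genes passed in 7 of 11 (median 3.12), with 11 of 11 positive. H2-Ab1, an MHC class II chain, had 12.35, 12.33 and 11.80 against 6.95, 9.97 and 9.31 (3.41, SE 0.72, limma adjusted p = 0.0496). H2-DMb1, a chaperone of peptide loading, had 10.87, 11.12 and 11.18 against 6.83, 8.40 and 7.85 (3.37, SE 0.38, limma adjusted p = 0.00744), and Ciita, the master regulator of the class, had 2.42. H2-DMb2, a neighbor and close copy of H2-DMb1, was lower in CD45+ replicate 3 (8.52) than in replicates 1 and 2 (10.64 and 10.66), against 5.71, 7.16 and 6.18 in CD45- arrays (3.59). MHC class I genes, which most cells express, passed in 3 of 13 (median 1.15): the immunoproteasome genes Psmb8 (1.82) and Psmb9 (1.81), and H2-M3 (1.51).

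Lymphocyte lists had medians under those of most myeloid lists. T cell receptor and signaling genes passed in 3 of 17 (median 1.14). Cd3g, a chain of the T cell receptor complex, had 6.82, 6.99 and 7.86 against 5.12, 5.61 and 5.68 (1.75, SE 0.31, limma adjusted p = 0.0286), the co-receptor gene Cd4, also found on macrophages, differed by 1.72 and the kinase gene Zap70 by 1.01. Cd3e (1.99, limma adjusted p = 0.0537) and Cd8a (1.38, 0.211) did not pass. NK cell and cytotoxic genes passed in 7 of 19 (median 1.47), with 19 of 19 positive. Klrd1, the CD94 receptor chain, had 6.91, 6.92 and 7.01 against 3.51, 4.81 and 3.74 (2.93, SE 0.33, limma adjusted p = 0.00755). Ifng, the cytokine interferon gamma, had 6.36, 6.61 and 6.46 against 4.41, 4.14 and 4.68 (2.07, SE 0.18, limma adjusted p = 0.00551), and Ccl5 (2.31) and Gzmb, a granzyme (1.29), also passed. B and plasma cell genes passed in 2 of 13 (median 0.49): Cd22, an inhibitory receptor of B cells, at 7.76, 7.80 and 8.37 against 5.51, 5.81 and 5.28 (2.44, SE 0.23, limma adjusted p = 0.00590), and the antigen receptor chain Cd79b (1.92). Jchain, which joins secreted antibodies, overlapped between groups, with 7.78, 7.06 and 10.75 against 4.78, 7.27 and 7.79 (1.92, limma adjusted p = 0.399).

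Checkpoint and regulatory genes passed in 11 of 21 members (median 0.98). Several of them are also expressed by myeloid cells, and the T cell transcription factor Foxp3 was not analysed here. Cd200r1, an inhibitory receptor of macrophages, differed by 3.49. Havcr2, the receptor TIM-3 of dendritic cells and exhausted T cells, had 7.86, 7.63 and 8.31 against 4.04, 5.31 and 4.77 (3.22, SE 0.34, limma adjusted p = 0.00646). Cd274, the ligand PD-L1, had 8.83, 8.56 and 8.80 against 6.42, 6.53 and 6.89 (2.12, SE 0.18, limma adjusted p = 0.00481), and Vsir, the checkpoint VISTA, had 2.27. Ctla4 had 5.10, 5.62 and 5.90 against 2.77, 3.79 and 2.68 (2.45, SE 0.35, limma adjusted p = 0.0146). Havcr2, Vsir and Cd274 kept their call in the 7 fits.

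Chemokine ligands and their receptors were both on the CD45+ side. CC chemokines passed in 8 of 20 (median 1.81) and 5 members had negative values. After Ccl12 came Ccl3 (3.80) and Ccl4 (3.18), which attract monocytes and T cells, with Ccl4 at 9.63, 9.51 and 10.65 against 6.44, 6.33 and 7.48. Ccl22, a ligand of CCR4 made by dendritic cells and macrophages, had 7.59, 7.64 and 8.23 against 4.54, 5.58 and 5.27 (2.69, SE 0.31, limma adjusted p = 0.00789). Ccl7 (2.57), Ccl9 (2.52), Ccl5 and Ccl17 (1.95) completed the 8. CXC chemokines passed in 5 of 17 (median 0.88): Cxcl2, which draws neutrophils, with 10.42, 10.30 and 10.85 against 7.83, 6.28 and 7.67 (3.26, SE 0.42, limma adjusted p = 0.0106), the platelet and macrophage chemokine Pf4 (3.05), Cxcl16 (2.84), Cxcl10 (1.58) and Cxcl3 (1.08). Cxcl12, which stromal cells make, had -0.51 (SE 0.63, limma adjusted p = 0.710) with 9.01, 9.01 and 10.43 against 8.76, 10.20 and 11.02, while its receptor gene Cxcr4 had 10.58, 10.48 and 11.35 against 7.13, 7.43 and 8.06 (3.26, SE 0.32, limma adjusted p = 0.00590). Chemokine receptors passed in 6 of 21 (median 1.16), led by Ccr1 (4.13), Cx3cr1 (3.85) and Cxcr4. Ccr2, by which monocytes leave the marrow, differed by 3.66 without passing (SE 0.79, limma adjusted p = 0.0527).

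Interferon-stimulated genes passed in 8 of 23 (median 1.02), with 22 of 23 positive. Mx1, an antiviral GTPase, had 7.96, 8.33 and 7.98 against 5.31, 5.43 and 5.64 (2.63, SE 0.18, limma adjusted p = 0.00299) and was the list's only member to keep its call in the 7 fits. Oasl1 (2.23), Oas1a (1.73), the RNA sensor Ifih1 (1.67), Oas3 (1.46), Rsad2 (1.40), Bst2 (1.32) and Ifit1 (0.95) made up the remaining calls.

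Some signaling genes outside the lists were among the 173 calls kept in the 7 fits, and the following were chosen after their values were seen. Btk, the kinase of B cells and myeloid cells that Fc and antigen receptors use, had 7.81, 7.66 and 8.76 against 4.58, 4.26 and 5.59 (3.27, SE 0.42, limma adjusted p = 0.0110). Syk, which acts above it, had 9.77, 9.82 and 10.37 against 7.47, 7.67 and 8.11 (2.24, SE 0.24, limma adjusted p = 0.00672). The phosphatase genes Inpp5d (SHIP1, 3.37) and Ptpn6 (SHP-1, 2.64), which oppose them, and the kinase genes Prkcb (3.36) and Pik3cd (2.10) were of the same side. In the NF-κB pathway, Rel, a subunit of the factor, had 10.58, 10.48 and 10.64 against 8.58, 8.34 and 8.41 (2.12, SE 0.15, limma adjusted p = 0.00304), Nfkbid, an atypical inhibitor, differed by 3.51 and the signaling protease Malt1 by 1.80. Cd69, an early activation marker of lymphocytes, had 9.14, 9.23 and 9.31 against 5.27, 5.68 and 5.89 (3.61, SE 0.19, limma adjusted p = 0.00299). Slc7a11, the cystine importer, had 8.93, 8.76 and 8.78 against 5.62, 5.80 and 5.94 (3.04, SE 0.16, limma adjusted p = 0.00299).

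Most tumor and stromal lists lay on the CD45- side by small amounts, and few of their members passed. Over all genes 0.672% were called lower, and 11856 of 19504 differences were negative. Genes of the neural crest and of dedifferentiated melanoma had a median of -0.52 with 19 of 22 negative and 1 called: Gfra2, a receptor of the neurotrophic factor neurturin, at 10.58, 10.73 and 11.09 against 11.51, 12.02 and 12.05 (-1.06, SE 0.22, limma adjusted p = 0.0471). Ngfr, the nerve growth factor receptor that marks dedifferentiated melanoma, had 11.25, 11.25 and 10.95 against 12.07, 11.70 and 12.21 (-0.85, SE 0.19, limma adjusted p = 0.0608), without overlap. Schwann and glial genes had the lowest median of the cell type lists, -0.73, with all 17 negative and 2 called, the adhesion gene Cadm4 (-0.96, SE 0.17, limma adjusted p = 0.0298) and the growth cone gene Gap43 at 10.16, 10.12 and 9.84 against 10.97, 10.99 and 10.89 (-0.91, SE 0.15, limma adjusted p = 0.0255). Among neuronal synapse and adhesion genes (median -0.42) Brinp1, Slitrk1 and the adapter gene Apba2 (-1.23, SE 0.22, limma adjusted p = 0.0289) were called of 28. Pigment genes had a median of 0.11 with 10 of 18 positive, and their differences ran from -1.82, not called, to 2.81. Tyr had 3.96, 3.95 and 3.54 against 4.07, 3.07 and 4.20, and Mlana 5.32, 4.96 and 4.83 against 5.59, 6.09 and 6.40 (-0.99, SE 0.25, limma adjusted p = 0.0808). The Tyr values lay in the dim range described for Brinp1, and whether they reflect expression was not tested. The list's 1 called gene was higher in CD45+ cells: Kit, a receptor that melanocytes share with mast cells, at 8.52, 8.59 and 8.62 against 6.33, 5.85 and 5.72 (2.61, SE 0.19, limma adjusted p = 0.00329). Ednrb, which melanocytes share with endothelium and other cells, differed by 2.81 without passing (limma adjusted p = 0.0716).

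Further genes of glial and matrix biology among the 131 lower calls were picked after their values were seen. Nrcam, an adhesion molecule of axons and glia, had 7.21, 7.08 and 7.37 against 8.16, 8.51 and 8.44 (-1.15, SE 0.17, limma adjusted p = 0.0157). Dhh, the hedgehog ligand of Schwann cells, differed by -1.11, Adgrg6, a receptor needed for myelination, by -1.06 and Ptprz1, a phosphatase of glial precursors, by -0.98 (10.85, 10.75 and 10.25 against 11.57, 11.61 and 11.60). Of enzymes that process collagen, Adamts14 had -1.24, P4ha3 -0.96 and Plod2 -0.94. None of these 7 kept its call in the 7 fits.

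Fibroblast and matrix genes were on the CD45- side in sign, as were 11856 of all 19504 genes. With 0.672% of all genes called lower, few or no calls say little for lists of this size. Fibroblast genes had a median of -0.64 with 16 of 17 negative and 0 called. Dpt, a dermal matrix protein, had one of the widest spreads, at 7.10, 6.95 and 9.93 in CD45+ and 7.94, 9.10 and 11.61 in CD45- arrays (-1.55, SE 1.11, limma adjusted p = 0.498), replicate 3 being the highest of each group. Collagens and matrix proteins had a median of -0.51 with 27 of 27 negative and 1 called: Fbln1, a protein of elastic fibers and basement membranes, at 10.03, 10.17 and 9.82 against 11.06, 10.96 and 11.20 (-1.07, SE 0.16, limma adjusted p = 0.0176). The mean of the 27 ran from 10.18 to 10.51 in CD45+ and from 10.65 to 11.24 in CD45- arrays. Among matrix proteases and inhibitors the 2 called genes were higher, Mmp12 and the leukocyte membrane protease gene Mmp25 (1.12), against a list median of -0.52, which became -0.27 without CD45+ replicate 3 and -0.28 without CD45- replicate 3. The inhibitor gene Timp1 had -1.25 (SE 0.40, limma adjusted p = 0.145).

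**Figure D4:**
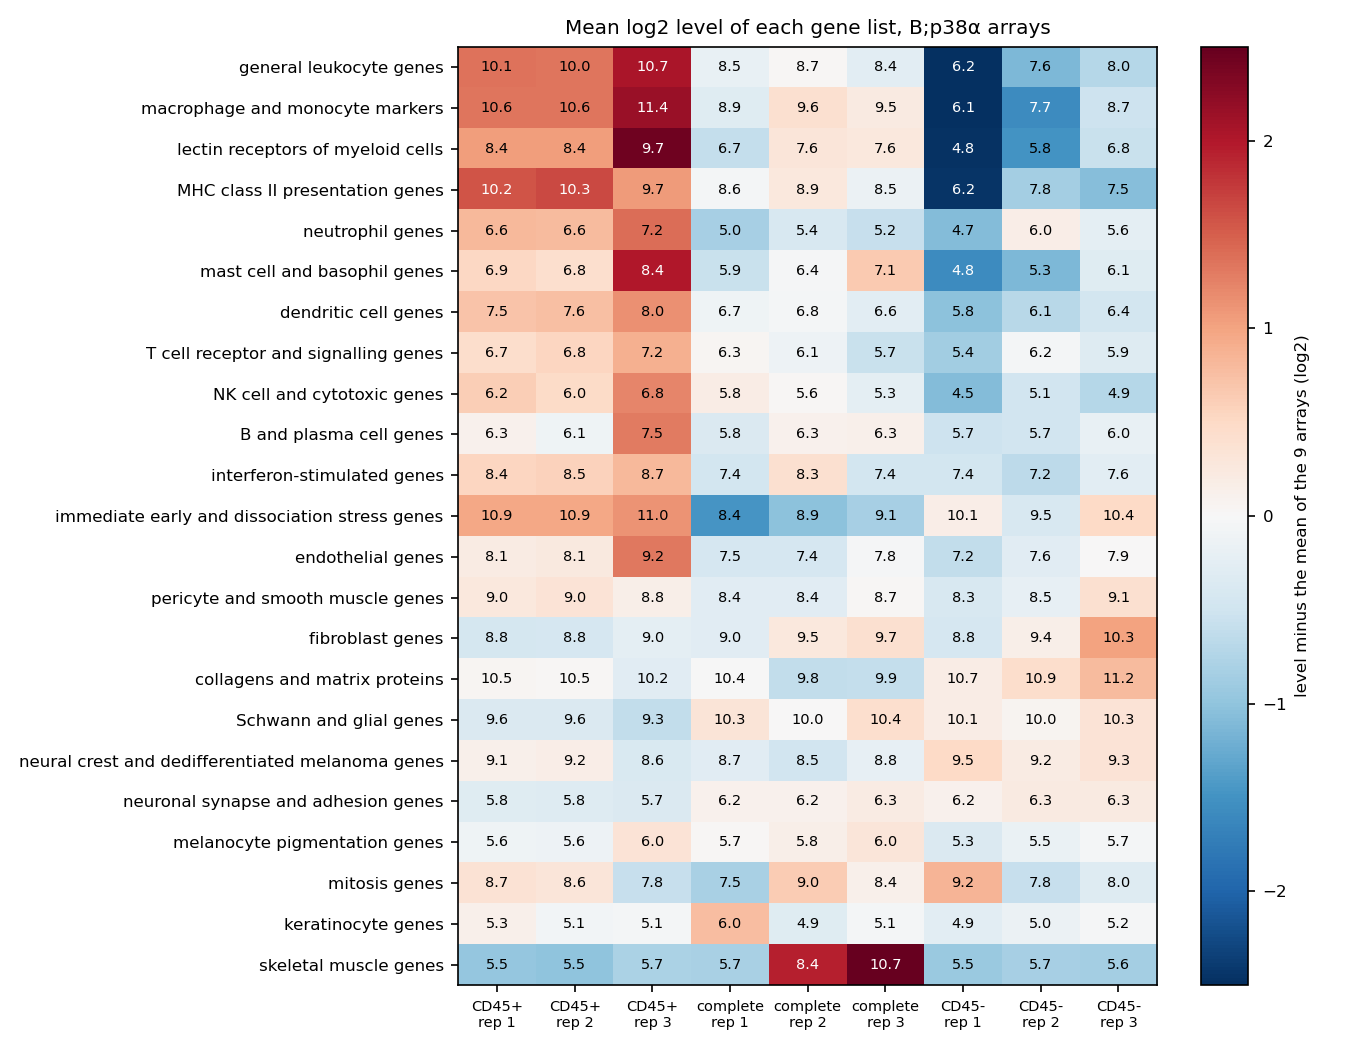
The number in each cell is the mean log2 level of a gene list on 1 array of B;p38α tumors (columns: CD45+, complete and CD45- replicates), and the color is that level minus the mean of the 9 arrays. CD45- replicate 1 is the lowest array for leukocyte and macrophage genes (6.19 and 6.14), while collagen, glial and neural crest genes span narrower ranges, and muscle genes are high in complete replicates 2 and 3.

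Some vessel genes were higher, not lower, in the CD45+ population. Of 20 endothelial genes 17 were positive (median 0.91) and 3 were called: Pecam1, the adhesion molecule CD31 that leukocytes and platelets also carry, at 9.82, 9.56 and 10.76 against 8.14, 8.65 and 8.56 (1.60, SE 0.33, limma adjusted p = 0.0462), the tight junction gene Cldn5 at 7.77, 8.10 and 8.37 against 6.51, 6.31 and 6.61 (1.60, SE 0.20, limma adjusted p = 0.00946) and the endothelial receptor gene Robo4 (1.04, SE 0.22, limma adjusted p = 0.0472). The VEGF receptor Kdr (1.48, limma adjusted p = 0.108) and VE-cadherin, Cdh5 (1.14, 0.0675), did not pass. The mean of the 20 stood at 8.07, 8.10 and 9.18 in CD45+, 7.24, 7.59 and 7.87 in CD45- and 7.45, 7.44 and 7.84 in complete tumors. Lyve1, a receptor of lymphatic vessels and some macrophages, had 11.68 in CD45+ replicate 3 against 8.0 and 7.89 in the others. Of 16 pericyte and smooth muscle genes 2 were called, both higher: Abcc9, a subunit of the potassium channel of mural cells, at 10.23, 9.98 and 9.0 against 8.05, 7.02 and 7.04 (2.36, SE 0.41, limma adjusted p = 0.0273), and Rgs5, a pericyte marker, at 10.60, 10.53 and 10.65 against 8.10, 8.35 and 9.60 (1.91, SE 0.38, limma adjusted p = 0.0413). Kcnj8, the pore of that channel, had 8.71, 8.68 and 7.20 against 6.97, 5.90 and 6.41 (1.77, SE 0.46, limma adjusted p = 0.0909). Their list had a median of -0.06, which became -0.45 without CD45- replicate 1 and 0.42 without CD45- replicate 3, and Pdgfrb, another mural marker, had -0.10. Cldn5 kept its call in the 7 fits, and Abcc9 and Rgs5 did not.

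Genes of skin and blood cells gave isolated calls, which at 4.31% of all genes called say little for lists of this size. Of 16 keratinocyte genes 1 was called, Cdh1, the E-cadherin that Langerhans cells also carry, at 9.28, 9.15 and 7.87 against 5.96, 6.29 and 6.36 (2.57, SE 0.38, limma adjusted p = 0.0162), while the keratin genes Krt5 (-0.07) and Krt14 (0.15) were low in all 6 arrays (4.27 to 5.76). Skeletal muscle genes gave no call (median 0.00, 17 measured): their mean was 5.46 to 5.68 in the 6 sorted arrays against 5.67, 8.41 and 10.71 in complete tumors. Of adipocyte genes the lipase gene Lipe was called (1.23) among 12, of platelet genes Pf4 among 8, and of 4 measured erythroid genes the erythropoietin receptor Epor was called higher (1.21, SE 0.15, limma adjusted p = 0.00896) and the anion exchanger Slc4a1 lower (-0.73, SE 0.15, limma adjusted p = 0.0496). Alas2, the heme synthesis enzyme of red cells, had -1.61 without passing (limma adjusted p = 0.144).

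Immediate early genes, which respond within minutes to handling of tissue as well as to growth factors, were higher in sign in 19 of 22 members (median 0.91), and 3 passed. Atf3, a stress-induced transcription factor, had 11.21, 11.19 and 11.64 against 9.15, 7.88 and 9.76 (2.41, SE 0.45, limma adjusted p = 0.0362), Klf2 differed by 2.05 and Nr4a1 had 10.60, 10.65 and 10.64 against 9.52, 8.62 and 9.40 (1.44, SE 0.25, limma adjusted p = 0.0281). The list mean was 10.87, 10.86 and 11.02 in CD45+ and 10.06, 9.50 and 10.40 in CD45- arrays, and only 8.42, 8.87 and 9.07 in complete tumors, which lay below both sorted groups for 22 of 22 members, against 37.7% of all genes. The same position was found for 127 of the 709 higher genes (17.9%), among them Tnf (4.81 in complete tumors), Cd69 (4.81), Cxcl2 (5.65) and Hcar2 (5.22, against means of 10.32 and 6.93 in the sorted groups), chosen after their values were seen. It was found for 8 of 16 classical activation genes and 12 of 17 neutrophil genes. Among macrophage markers it was found for 0 of 21, and among MHC class II genes for 0 of 11. The position was not confined to immune lists. It was found for 19 of 27 collagen and matrix genes, 15 of 22 neural crest genes and 13 of 18 ERK output genes. For Schwann genes it was 3 of 17 and for fibroblast genes 4 of 17. The part that dissociation has in these levels was not tested. For 579 of the 709 genes complete tumors lay between the sorted groups, and for Gm3448, Ifit3b and Tuba4a above both. Of the 131 lower genes 82 lay between, 23 (17.6%) above and 26 (19.8%) below both, against 32.8% and 37.7% of all genes.

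Lists of proliferation and respiration genes held no called gene, which at 4.31% of all genes called says little for lists of this size. Of 20 mitosis genes 0 were called (median 0.03) and of 19 DNA replication genes 0 (median 0.02), the mitosis list running from 7.76 to 8.68 in CD45+ and from 7.75 to 9.18 in CD45- arrays. Mki67, the proliferation antigen, had 11.01, 10.92 and 9.77 against 11.23, 9.75 and 9.79 (0.31, SE 0.49, limma adjusted p = 0.783), so 1 CD45- array was as high as the highest CD45+ arrays. Oxidative phosphorylation genes had a median of -0.09 with 0 of 22 called and differences from -0.29 to 0.23. Of 20 hypoxia and glycolysis genes 3 passed, the hexokinase genes Hk2 (1.94) and Hk3 (1.20), the latter known from myeloid cells, and the phosphofructokinase gene Pfkl (0.84).

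In lists of signaling genes the share called was near the 4.31% of all genes. Of 19 p38 pathway components 1 was called, Map3k5, the stress kinase ASK1, at 8.01, 8.03 and 8.35 against 6.17, 6.17 and 7.01 (1.68, SE 0.26, limma adjusted p = 0.0201). The p38 isoform genes Mapk11 (-0.67, limma adjusted p = 0.133) and Mapk13 (0.48, 0.177) and the upstream kinase genes Map2k3 (0.16, 0.646) and Map2k6 (-0.22, 0.768) did not pass. Differences of the 19 components ran from -0.67 to 2.15, the latter not called. Of 18 ERK output genes 1 was called, the phosphatase gene Dusp5 (1.29, SE 0.24, limma adjusted p = 0.0338), against a list median of -0.27, with Spry2 at -0.69 and Phlda1 at -0.68 not passing. Of 24 TGF-beta and BMP genes the receptor gene Tgfbr1 was called (0.87, SE 0.15, limma adjusted p = 0.0255), while the ligand genes Tgfb2 (-1.30, 0.0533) and Bmp2 (2.29, 0.0579) differed in opposite directions without passing. None of 29 WNT genes (median -0.44, or -0.29 without CD45+ replicate 3, 26 negative), 27 receptor tyrosine kinases and ligands, 14 retinoic acid genes and 12 major urinary protein and Serpina1 genes was called. Csf1, the ligand of Csf1r, had 10.09, 10.07 and 10.14 against 10.53, 10.82 and 11.37 (-0.80, SE 0.23, limma adjusted p = 0.113), on the opposite side to its receptor. Of 12 imprinted growth genes Peg3 was lower, at 8.35, 8.53 and 8.62 against 9.20, 9.61 and 10.00 (-1.10, SE 0.23, limma adjusted p = 0.0462). Differences of these 12 ran from -1.63 to 0.18, and those of the receptor tyrosine kinases and ligands from -1.05 to 3.04.

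The same contrast in B tumors, in which melanocytes keep p38α, is the closest comparison and shares no arrays with it. There 545 genes (2.79%) were higher in CD45+ cells and 24 (0.123%) lower, and Ptprc differed by 2.24 against 3.53 in B;p38α tumors, with CD45- means of 9.76 and 7.93. Leaving out B CD45+ replicate 1, 2 or 3 gave 248, 225 and 0 higher and 0 lower genes each. Leaving out B CD45- replicate 1, 2 or 3 gave 523, 341 and 434 higher and 65, 13 and 0 lower genes. Of the 709 genes higher in B;p38α tumors 423 (59.7%) were also called in B tumors, which is 77.6% of the B calls, and 0 genes were called in opposite directions. Of the 131 lower genes 0 were called lower in B tumors, which says little where only 0.123% of all genes were. The sign was shared by 708 of the 709 (the exception, the carboxypeptidase gene Cpm, had 1.95 and -0.69) and by 128 of the 131 (the exceptions were Astn1, Brinp2 and Pramel13). Median differences of the B;p38α calls in B tumors were 1.67 against 2.10 for the higher and -0.66 against -0.98 for the lower genes, all of them chosen by their values in B;p38α tumors. Across the 19504 genes the 2 contrasts had a Pearson r of 0.776 and a Spearman rho of 0.568, a description, since genes are not independent replicates.

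No gene passed the test of a difference between the genotypes. The limma interaction over the 12 sorted arrays called 0 genes at a median SE of 0.37, with 380 at an unadjusted p under 0.05 (202 larger and 178 smaller in B;p38α tumors) and a smallest adjusted p that rounds to 1. Leaving out CD45+ replicate 3 of B;p38α tumors gave 1 call. Most myeloid lists had smaller medians in B tumors, such as 2.05 for macrophage markers, 1.91 for MHC class II and 2.15 for general leukocyte genes, beside the higher Ptprc level of the B CD45- arrays, whose part in this was not tested. The interaction for Ptprc was 1.30 (SE 0.57, unadjusted p = 0.0439, limma adjusted p = 1). Acod1 had the smallest unadjusted p among genes that were called in B;p38α tumors, with 8.24, 7.90 and 8.11 against 5.33, 5.78 and 6.02 (2.38) and a difference of 0.93 in B tumors (interaction 1.45, SE 0.37, limma adjusted p = 1). Further genes with the smallest unadjusted p were Gm11568 (1.13), Cbln1 (1.38), Hopx (1.46), Cyp4b1-ps2 (1.42) and Lrr1 (1.08), with positive interactions, and Il25 (-1.41), Scube3 (-1.16), St6galnac1 (-1.44), Ccdc78 (-1.25), Plch1 (-1.02) and Ptchd1 (-1.01), with negative ones, at 0.000326 to 0.00274. None passed.

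**Figure D5:**
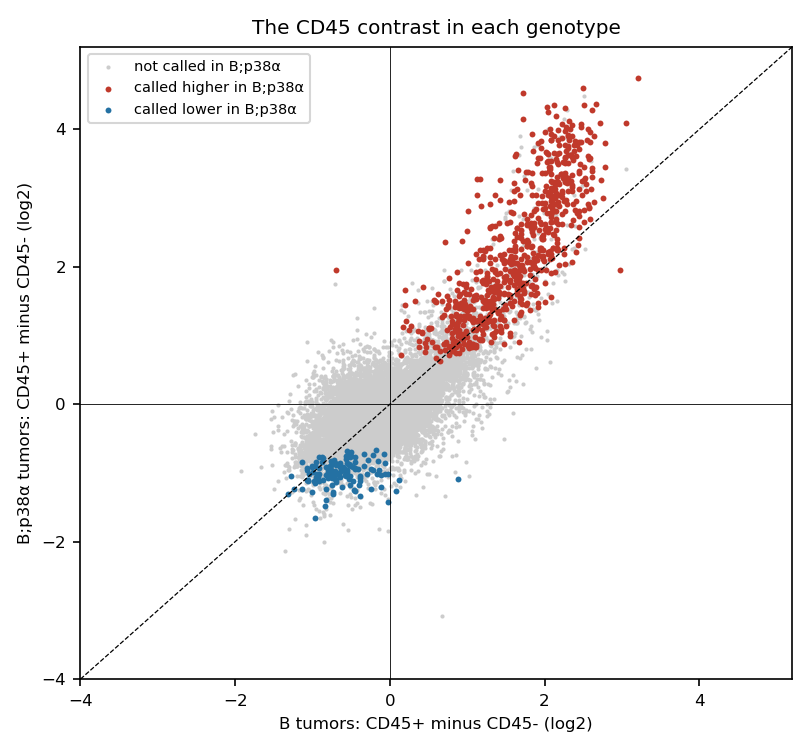
Each point is a gene, with its CD45+ minus CD45- difference (log2) in B tumors on the horizontal and in B;p38α tumors on the vertical axis, and the dashed line marks equal differences. Genes called higher in B;p38α tumors (red) lie mostly above the line, with a median of 2.10 in B;p38α against 1.67 in B tumors, and those called lower (blue) gather near -0.98.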

How the data were processed

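RNA of sorted and complete tumors was measured on expression arrays. The values the authors deposited are log2 intensities processed with RMA (named, with no version or genome build, per the submitters' processing notes) and run from 1.31 to 14.15. Of its 21244 rows, 19570 name 1 gene through the platform annotation, and after dropping 66 second rows of a symbol 19504 genes were left; 0 columns of other samples were used. All array medians of the 6 arrays lay between 6.90 and 7.01. Arrays carry no read depth, so their number limits the precision.

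CD45+ minus CD45- differences were fitted on the 6 arrays, and the difference between genotypes on 12, with limma 3.58.1 (lmFit and eBayes) in R 4.3.3. P-values were Benjamini-Hochberg adjusted over all genes, and a gene was called with an adjusted p under 0.05. The code was tested on simulated data. Plots were made in Python 3.11.15 (matplotlib 3.10.9). The populations compared, the 51 gene lists and the tests were chosen with earlier results of these data known. Lists are described by counts and medians beside those of all genes, with no test of their own. Named genes are Ptprc, Mapk14, Braf and the Y-linked genes, the 12 largest called differences each way, and some of the largest members of the lists. A list's largest member is not always among them. All called members of a list were named where there are 5 or fewer, as were called members against their list's side. The genes with the 6 smallest unadjusted p of the genotype difference each way were named too. Other genes were named after their values were seen, among them uncalled list members given as contrast. Alternatives were other sets of arrays in the fit, a replicate block, a filter on dim genes, repeated quantile normalization, array weights, another variance model, the Y-linked mean as covariate, averaging CD45+ replicates 1 and 2, leaving out each replicate, and testing every row. Replicate numbers were not treated as pairs.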

Additional observations from a re-analysis of the deposited data

Results flagged for a closer look

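Rows of the table that name no single gene stood outside the comparison of genes, and some of them passed it. In the limma fit of every row, 64 of 1674 such rows had an adjusted p under 0.05 between CD45+ and CD45- populations of B;p38α tumors, 54 of them higher and 10 lower in CD45+ cells. The largest difference among them was that of the row TC0900001675.mm.2, at 9.49, 9.17 and 9.94 in CD45+ and 3.19, 4.49 and 6.36 in CD45- arrays (4.85, SE 0.73, limma adjusted p = 0.0185), above that of any called gene. The row TC1900000216.mm.2 differed by 4.52 (SE 0.82, limma adjusted p = 0.0332). On the CD45- side the row TC0700003908.mm.2 had -1.24 and TC0700003909.mm.2 had -1.20. The files used here pair these rows with no gene. With 3 arrays a group, no gene was tested for a single outlying array.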

How the results depend on the processing

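No called value changed direction under any alternative that was run. Counts of genes called in B;p38α tumors, 709 higher and 131 lower, moved by more than 1.5 times as follows. The ranges given here and below for 1 array left out also hold some smaller shifts. Higher genes fell to 190 with the Y-linked mean as a covariate and to 252 with CD45+ replicates 1 and 2 averaged, and ranged from 205 to 615 when 1 array was left out. Lower genes numbered 86 with the 4 sorted groups in 1 fit, 281 without genes under the 30th percentile, 314 with array weights, 305 with a trended and robust variance, 3 with the Y-linked covariate, 4 with averaging, and 4 to 120 with 1 array left out. Among listed genes the 171 higher became 46 with the covariate, 51 with averaging and 46 to 167 with 1 array left out, and the 9 lower became 17 without dim genes, 25 with array weights, 24 with the trended variance, 1 with the covariate, 1 with averaging and 1 to 15 with 1 array left out. In B tumors the 545 higher genes became 1001 with all 6 groups in 1 fit, 1207 with array weights and 0 to 523 with 1 array left out. The 24 lower ones became 148 with the 4 sorted groups in 1 fit and 148 without dim genes, 269 with all 6 groups, 88 after repeated quantile normalization, 731 with array weights, 128 with the trended variance and 0 to 65 with 1 array left out. The genotype difference called 0 to 1 genes when 1 array was left out and 0 otherwise. Of the list medians under these alternatives 38 moved by more than the spread between replicates and 778 did not. Without dim genes the median rose from 1.31 to 2.63 for neutrophil genes, from 1.16 to 1.96 for chemokine receptors and from 0.49 to 1.16 for B and plasma cell genes, and fell from -0.42 to -0.92 for neuronal genes. With the Y-linked covariate it was 0.57 in place of 0.91 for immediate early genes. For Ptprc the exact test cannot pass at this size and limma's adjusted p did, at a difference of 3.53. Fewer arrays are tested where arrays are left out or averaged, and the Y-linked covariate comes close to leaving out CD45- replicate 2. The cause of the other shifts was not tested.

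The replicate block gave 811 higher and 120 lower genes in B;p38α tumors, of which 633 and 63 were among those called without it, and 0 higher and 0 lower genes in B tumors. Deviations of arrays with the same number correlated at 0.30, -0.11 and 0.35 in B;p38α and at -0.47, -0.57 and 0.36 in B tumors, so the numbers were not taken as pairing.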

Other observations

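Genes that passed in all 6 fits with an array left out and after averaging, and that belong to no list above, included further inhibitory and metabolic genes of myeloid cells, picked after their values were seen. Slamf7, a receptor of the SLAM family on NK cells and macrophages, differed by 4.09 (SE 0.41, limma adjusted p = 0.00590). Hcar2, a receptor for nicotinic acid and ketone bodies on macrophages and neutrophils, had 10.48, 10.40 and 10.07 in CD45+ and 6.35, 7.29 and 7.15 in CD45- arrays (3.38, SE 0.27, limma adjusted p = 0.00434). Spic, a relative of PU.1 that red pulp macrophages need, differed by 3.35 (limma adjusted p = 0.00789). The adapter gene Bank1 (3.61) and the platelet and leukocyte gene Plek (3.64) were on the same side.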
